A study of Schizosaccharomyces pombe with 12 samples.

Results

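The transcriptome of unstressed fission yeast cells whose RNA polymerase II tail has no serine 2 was compared with that of a control strain. The tested strain, *rpb1-12XS2ACTD*, encodes a polymerase whose carboxy terminal domain (CTD) holds 12 heptad repeats, each with alanine at the serine 2 position. The control strain, *rpb1-12XCTD*, holds 12 wild-type repeats. Both are *h-* strains with the background *ura4-D18 leu1-32*, and both carry *ura4* as the marker beside the *rpb1* allele. The CTD is shortened in both strains, so the comparison is between 2 short tails and not with a full-length polymerase, and each genotype is a single listed strain. Log-phase cultures in YES medium at 30 °C received DMSO, the solvent of the actin drug latrunculin A (LatA), for 3 h. Of the 12 arrays of the series, 6 make up this comparison, 3 biological replicates of DMSO-treated *rpb1-12XS2ACTD* and 3 of DMSO-treated *rpb1-12XCTD*. The other 6 arrays are of the same strains after 3 h in 0.5 µM LatA. All 4875 *S. pombe* probe sets of the Affymetrix Yeast Genome 2.0 array were tested, and those with a gene name are called by it.

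The CTD is a long tail of repeated heptads on Rpb1p, the largest subunit of RNA polymerase II. Its serines are phosphorylated and dephosphorylated as the polymerase moves along a gene, and the marks are read by factors that process the RNA and modify chromatin. In fission yeast Lsk1p, with the cyclin Lsc1p and the third subunit Lsg1p, phosphorylates serine 2, a mark that accumulates toward the 3′ ends of genes. Many genes of meiosis, mating and the chromosome ends are held at a low level in growing fission yeast, by transcription factors that are switched on only by starvation, by removal of meiotic mRNAs in the nucleus and by heterochromatin.

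The deposited values are log2 intensities centred probe set by probe set, so that each has a median of 0 over the 12 arrays. A value of 1 thus means an intensity 2-fold above that gene's own median, and the level of one gene cannot be set against that of another. For the same reason the mating type of the cultures could not be checked from marker levels, and *rpb1*, which both strains carry with 12 repeats, cannot check the genotypes. A call required more than 1.5 fold, which is 0.585 on the log2 scale, together with a p under 0.05 after Benjamini-Hochberg adjustment over all probe sets. The p-values are from limma, fitted to all 12 arrays with 1 mean per group and a spread shared by the 4 groups, and they rest on 3 replicates per group.

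The DMSO replicates were uneven. The median over probe sets of the standard deviation between replicates was 0.0974 log2 in DMSO-treated *rpb1-12XS2ACTD* and 0.195 in DMSO-treated *rpb1-12XCTD*, against 0.0779 and 0.0684 for the LatA groups of the same strains. Because the limma fit shares one spread, its errors for the DMSO arrays can be too small. Replicate 1 of *rpb1-12XS2ACTD* correlated across probe sets at 0.31 to 0.75 with the *rpb1-12XCTD* arrays, but at only 0.45 and 0.30 with replicates 2 and 3 of its own strain. Replicate 1 of *rpb1-12XCTD* also lay apart, at 0.30 and 0.54 with its own replicates. The medians of the arrays were 0.01, −0.02 and 0.00 in *rpb1-12XS2ACTD*, and −0.16, −0.11 and 0.07 in *rpb1-12XCTD*. Over all probe sets the median difference was 0.06 log2, and 70.4% of the differences lay above 0. What sets these arrays apart was not tested, and the genotype label of replicate 1 of *rpb1-12XS2ACTD* could not be checked from these values.

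With DMSO, 41 probe sets (0.841% of 4875) were higher and 1 (0.0205%) was lower in *rpb1-12XS2ACTD*. The higher ones carried 34 gene names, and 6 probe sets had no single name. Their differences ran from 0.60 to 3.94 log2, or 1.51 to 15.4 fold, with 23 above 1 log2. Of the 41, 11 belonged to protein-coding genes counted near the ends of chromosomes I and II and 13 to 4 lists of meiotic genes, with no probe set in both. In all 42 the arrays of the strains did not overlap, which held for 8.35% of all probe sets with *rpb1-12XS2ACTD* above and 1.19% with it below. The calls were made on these same arrays, so their lack of overlap follows largely from the choice and adds no support. With limma on the 6 DMSO arrays alone no probe set was called, and the adjusted p of the 42 ran from 0.0908 to 0.350. At an unadjusted p under 0.05 and 1.5 fold that fit passed 131 probe sets (2.69%) in either direction. The gene-specific test named in the study's methods, run here with equal variances, called none after adjustment and passed 74 higher and 1 lower (1.52% and 0.0205%) at an unadjusted p under 0.05.

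**Figure D1:**
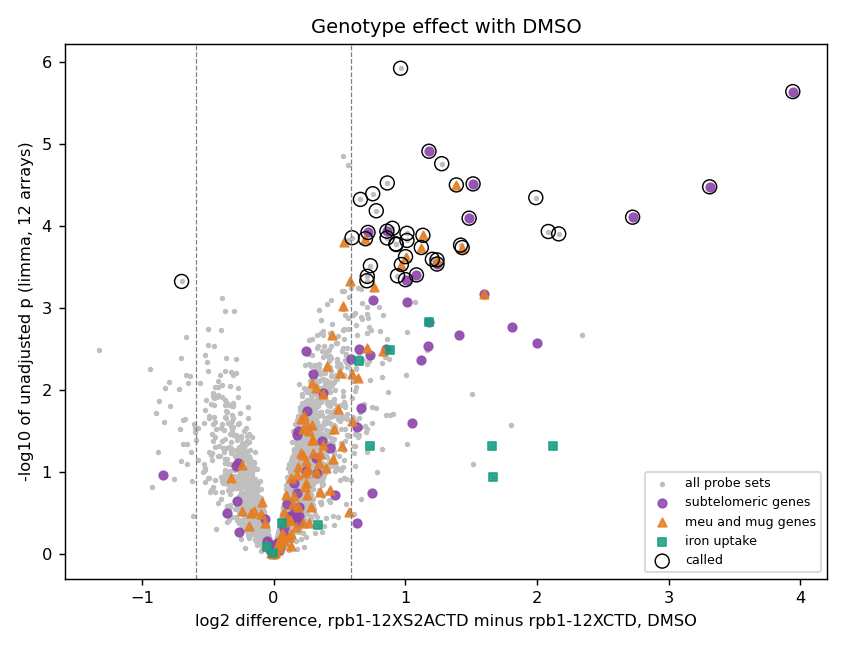
Each point is a probe set, with the log2 difference between strains with DMSO on the x axis (*rpb1-12XS2ACTD* minus *rpb1-12XCTD*) and the −log10 of limma's unadjusted p on the y axis; dashed lines mark 1.5 fold and rings mark the 42 calls. Subtelomeric genes lead on the right with *tlh2* at 3.94, and the 3 iron uptake genes furthest right, *fio1*, *str1* and *fip1*, carry no ring.

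The largest differences were at telomere-linked helicase genes, which encode RecQ-type helicases beside the chromosome ends and are normally silent. *tlh2* had log2 values of 1.15, 3.29 and 3.19 in *rpb1-12XS2ACTD*, against −1.15, −1.59 and −1.44 in *rpb1-12XCTD*. The tested strain was above the control on every array, with its replicate 1 about midway between the others and the control. The difference was 3.94 (SE 0.44, adjusted p = 0.00558; 0.122 from the 6 DMSO arrays alone). A second *tlh2* probe set, which can match several genes, gave 0.90, 3.22 and 3.14 in *rpb1-12XS2ACTD* and −0.84, −0.78 and −1.05 in *rpb1-12XCTD*. SPAC212.06c, a shorter copy of the same family on chromosome I, had 0.55, 2.68 and 2.58 in *rpb1-12XS2ACTD* and −0.55, −0.95 and −0.87 in *rpb1-12XCTD*. Their differences were 3.31 (adjusted p = 0.0161) and 2.73 (adjusted p = 0.0243), and replicate 1 was again the lowest of the tested arrays. Since the copies are near identical, these 2 probe sets cannot assign the RNA to a single locus. Whether the first *tlh2* probe set can was not tested, and *tlh1*, of the same family, had no probe set under its own name.

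Other genes near the chromosome ends were higher alongside them. Of 72 probe sets for the 40 outermost protein-coding genes of each end of chromosomes I and II, 11 were higher (15.3%, against 0.841% of all probe sets) and 0 lower, with a median difference of 0.28 against 0.06 over all probe sets. SPAC750.07c, the second gene from the right end of chromosome I, had 0.20, 1.20 and 0.68 in *rpb1-12XS2ACTD* and −0.59, −1.18 and −0.69 in *rpb1-12XCTD* (difference 1.51, adjusted p = 0.0161). SPBC1348.01, the second gene from the left end of chromosome II, had 0.13, 1.10 and 0.89 in *rpb1-12XS2ACTD* and −1.07, −0.79 and −0.46 in *rpb1-12XCTD* (difference 1.49, adjusted p = 0.0243). In both, replicate 1 lay lowest of the tested arrays and still above every control array. Further in on the left arm of chromosome I, SPAC977.06 had 0.83, 0.49 and 0.67 in *rpb1-12XS2ACTD* and −0.72, −0.09 and −0.75 in *rpb1-12XCTD*. Its difference of 1.18 (SE 0.16, adjusted p = 0.0146) is one of the few in which replicate 1 was the highest tested array. SPAC977.04, close by, had −0.11, −0.06 and 0.07 in *rpb1-12XS2ACTD* and −1.04, −1.28 and −1.03 in *rpb1-12XCTD*. Its 3 tested arrays lay within a narrow range, 1.08 above the control (adjusted p = 0.0463 from limma). The call held in 2 of 6 fits with 1 DMSO array left out and in 2 of 6 with 1 LatA array left out. With LatA the difference of SPAC977.04 was 0.35 (adjusted p = 0.376 from limma). The 4 probe sets of this paragraph can match several genes, so that their RNA may come from more than 1 place.

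The other 4 calls among the protein-coding genes counted near the ends did not have that limit. *say1* had 0.38, 1.40 and 1.33 in *rpb1-12XS2ACTD* and −0.29, −0.13 and −0.20 in *rpb1-12XCTD* (difference 1.24). SPBC1348.12 had −0.03, 0.86 and 0.90 in *rpb1-12XS2ACTD* and −0.38, −0.64 and −0.26 in *rpb1-12XCTD* (difference 1.00, adjusted p = 0.0489), and its replicate 1 lay nearer to the control than to its own replicates. *pfl9*, which encodes a flocculin-like cell surface protein, had −0.02, 0.36 and 0.52 in *rpb1-12XS2ACTD* and −0.71, −0.71 and −0.30 in *rpb1-12XCTD* (difference 0.86). *hhy1* had 0.19, 0.48 and 0.70 in *rpb1-12XS2ACTD* and −0.19, −0.41 and −0.19 in *rpb1-12XCTD* (difference 0.72, adjusted p = 0.0259). With quantile normalization these 4 calls ended, as did those of SPBC1348.01 and SPAC977.04, while the other calls near the ends held. *pfl9* was the only one called of 13 probe sets of flocculins and their regulators, whose median difference was 0.19. SPBC1348.12 was the only one of 136 genes induced in the core environmental stress response, and *say1* and *hhy1* were the only ones of 561 stress response genes (medians 0.07 and 0.08). The shares called higher in these 2 stress lists, 0.74% and 0.36%, lay below the 0.841% of all probe sets.

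The calls were densest at the very ends. For the outermost 10 genes of each end, which were covered by 10 probe sets in all, 5 were higher, with a median difference of 1.45 log2. Among genes 11 to 20 it was 4 of 20 (median 0.50), among genes 21 to 40 it was 2 of 42 (median 0.17), and among genes 41 to 80 it was 0 of 129 (median 0.03). Among the 3017 probe sets further inside the same chromosomes 19 were higher, or 0.630%. The 5 calls of the outermost genes were both *tlh2* probe sets, SPAC212.06c of the same family, SPAC750.07c and SPBC1348.01. All but the first *tlh2* probe set are of the kind that can match several genes, and whether that one separates the copies was not tested. The 5 may therefore not be separate places. By end, the counts were 4 of 16 on the left and 2 of 15 on the right of chromosome I, and 2 of 19 on the left and 3 of 22 on the right of chromosome II. The ends of chromosome III, which carry ribosomal DNA, had 0 of 51. Several uncalled genes lay as far above 0 as the called ones, such as *cmt2* (1.81, adjusted p = 0.0978), *mug14* (1.60, adjusted p = 0.0604) and SPBPB2B2.07c (2.00, adjusted p = 0.114).

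**Figure D2:**
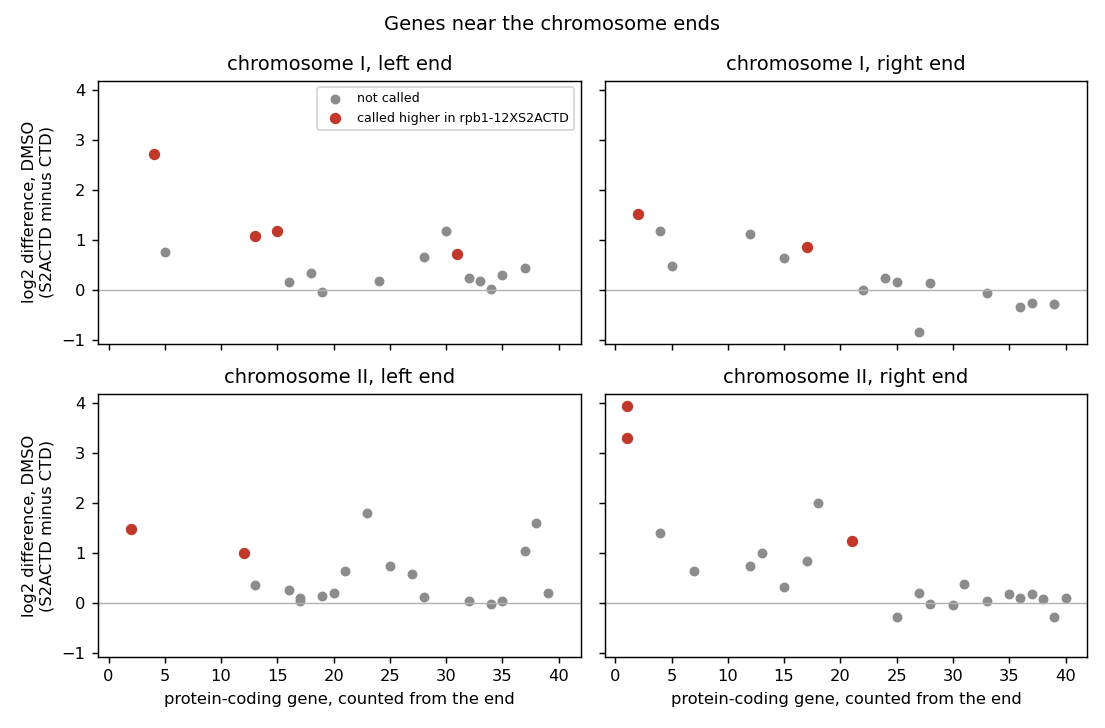
The log2 difference between strains with DMSO (*rpb1-12XS2ACTD* minus *rpb1-12XCTD*, y axis) is plotted for each of 72 probe sets against the place of its gene counted from the chromosome end (x axis), with a panel per end and the 11 called probe sets in red. The high values lie to the left of each panel, where 5 of the 10 probe sets for the outermost 10 genes were called, and *tlh2* is the pair at 3.94 and 3.31 on the right end of chromosome II. Of those 5, all but the *tlh2* probe set at 3.94 are of the kind that can match several genes, and whether that one separates the copies was not tested.

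Genes of the meiotic programme made up the second group. They act after starvation and mating, in DNA recombination, in the meiotic divisions and in the making of spores. Of 98 probe sets of genes named *meu* or *mug* for their rise in meiosis, 8 were higher (8.16%, against 0.841% of all probe sets) and 0 lower, with a median difference of 0.24 against 0.06 over all probe sets. Meiotic recombination and chromosome axis genes gave 3 of 13 (median 0.18), sporulation and spore wall genes 2 of 18 (median 0.23) and regulators of entry into meiosis 1 of 10 (median 0.21). *meu14* is counted in both the first and the third list. With quantile normalization the calls of *rec10*, *dmc1*, *mde2*, *meu14* and *spn6* ended, as did those of *meu27*, *meu25*, *meu7* and *mug62*. Those of *mug137*, *meu1*, *mug106* and *cuf2* held.

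*rec10*, a component of the linear elements that organize meiotic chromosomes for recombination, had −1.04, 0.16 and 0.39 in *rpb1-12XS2ACTD*, against −2.02, −2.20 and −2.25 in *rpb1-12XCTD*. The control arrays lay close together, and replicate 1 of the tested strain lay between them and its own replicates. The difference was 1.99 (SE 0.31, adjusted p = 0.0177; 0.165 from the 6 DMSO arrays alone). *dmc1*, the meiosis-specific strand exchange recombinase, had 0.21, 0.62 and 0.49 in *rpb1-12XS2ACTD* and −0.54, −0.58 and −0.26 in *rpb1-12XCTD* (difference 0.90, adjusted p = 0.0259). *mde2*, needed for the DNA breaks that start meiotic recombination, had 0.64, 0.52 and 0.44 in *rpb1-12XS2ACTD* and −0.32, −0.07 and 0.01 in *rpb1-12XCTD* (difference 0.66, adjusted p = 0.0177). In *mde2* replicate 1 was the highest of the tested arrays. The other 10 probe sets of the list were not called.

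Among sporulation genes, *meu14*, whose product sits at the leading edge of the forespore membrane, had 0.31, 0.96 and 0.90 in *rpb1-12XS2ACTD* and −1.39, −0.30 and −0.45 in *rpb1-12XCTD*. Replicate 1 of the control was the lowest array by far, and the difference was 1.43 (SE 0.26, adjusted p = 0.0261). *spn6*, a septin made in sporulating cells, had 0.24, 0.39 and 0.30 in *rpb1-12XS2ACTD* and −0.75, −0.24 and −0.66 in *rpb1-12XCTD* (difference 0.86, adjusted p = 0.0259). *cuf2*, a transcription factor of the meiotic programme, had 0.22, 0.21 and 0.27 in *rpb1-12XS2ACTD* and −0.60, −0.54 and −0.42 in *rpb1-12XCTD*. Its arrays were among the tightest of the 42, with a difference of 0.75 (adjusted p = 0.0177) and an unadjusted p of 0.00015 by the methods' test. *ste11*, the master regulator of sexual differentiation, was not among the calls. It had −0.75, −1.21 and −1.16 in *rpb1-12XS2ACTD* and −0.54, −1.16 and −0.32 in *rpb1-12XCTD*, groups that overlapped (difference −0.37, adjusted p = 0.381).

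Of the *meu* and *mug* genes that were called, those with the largest differences after *meu14* were *mug137*, *meu27* and *meu7*. *mug137* had 0.35, 0.67 and 0.85 in *rpb1-12XS2ACTD* and −1.24, −0.45 and −0.60 in *rpb1-12XCTD* (difference 1.39, adjusted p = 0.0161). *meu27* had −0.39, 0.14 and 0.10 in *rpb1-12XS2ACTD* and −1.58, −0.71 and −1.59 in *rpb1-12XCTD* (difference 1.24, adjusted p = 0.0339). For *meu27* replicate 2 of the control lay closest to replicate 1 of the tested strain, while the other arrays lay far apart. *meu7* had 0.07, 0.66 and 0.93 in *rpb1-12XS2ACTD* and −0.81, −0.61 and −0.34 in *rpb1-12XCTD* (difference 1.13, adjusted p = 0.0259). *meu1*, on a probe set that can match several genes, had 0.32, 0.60 and 0.52 in *rpb1-12XS2ACTD* and −1.20, −0.39 and −0.33 in *rpb1-12XCTD* (difference 1.12, adjusted p = 0.0261). The differences of the others were 1.00 for *meu25*, 0.97 for *mug62* and 0.70 for *mug106*.

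**Figure D3:**
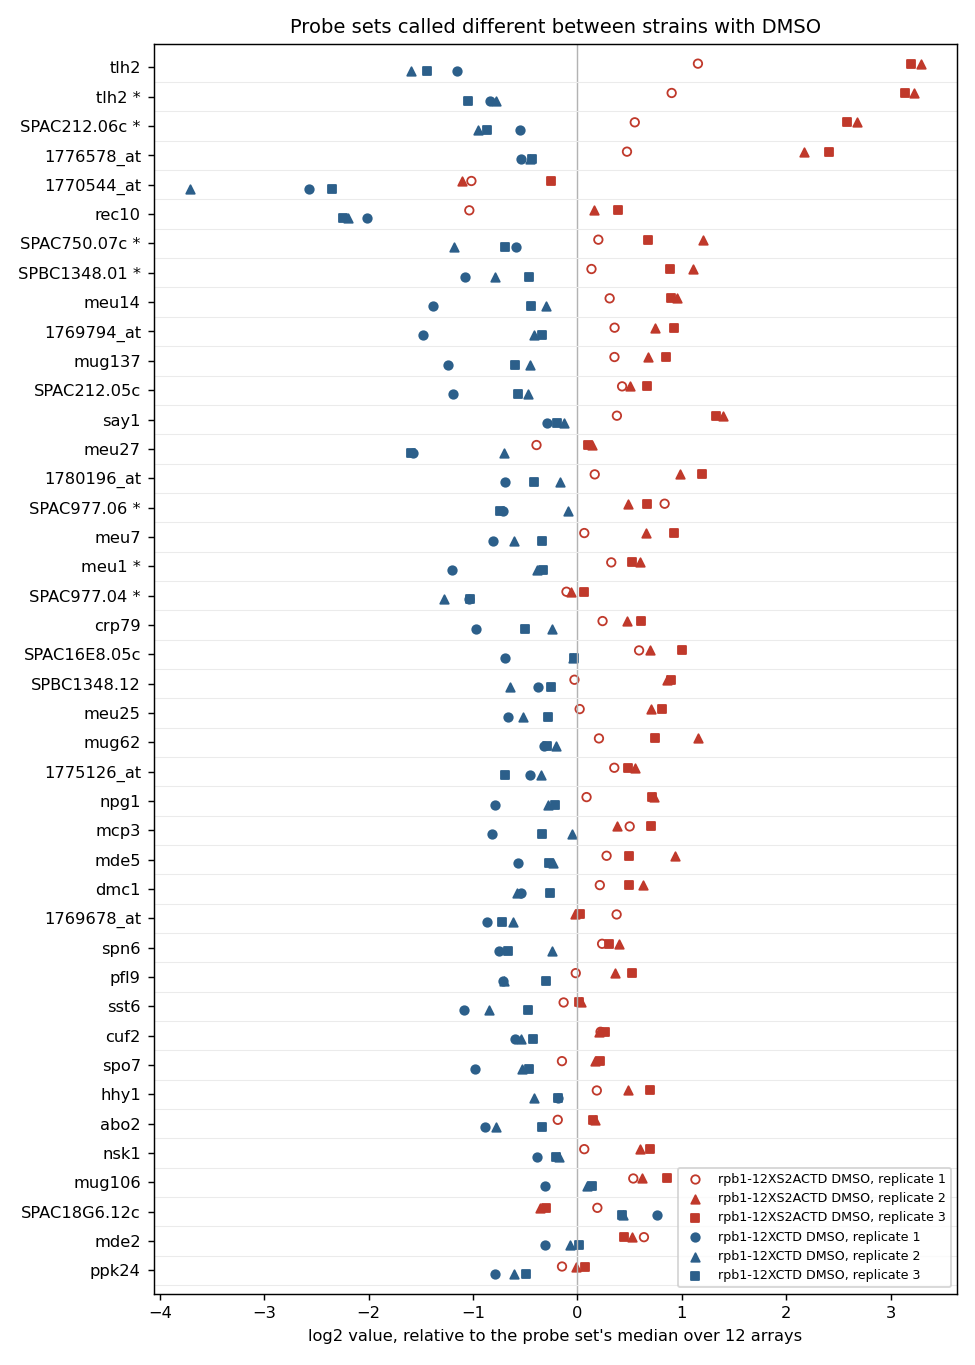
For each of the 42 called probe sets, from the largest difference at the top, the log2 value relative to the probe set's median over 12 arrays (x axis) is given on each DMSO array, *rpb1-12XS2ACTD* in red and *rpb1-12XCTD* in blue, with replicate 1 of *rpb1-12XS2ACTD* as open circles and an asterisk for probe sets that can match several genes. Red and blue do not overlap in any row, which follows largely from how the rows were picked. The open circle is the lowest red point in 35 of the 41 rows that are higher.

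Outside these lists lay 17 of the 41, of which 11 had a name. Some of these also have names or roles from meiosis. *crp79*, an RNA-binding protein of mRNA export made in meiosis, had 0.24, 0.48 and 0.61 in *rpb1-12XS2ACTD* and −0.97, −0.24 and −0.50 in *rpb1-12XCTD* (difference 1.01, adjusted p = 0.0259). *mcp3*, which encodes a meiotic coiled-coil protein, differed by 0.93, *mde5*, which is induced by the meiotic factor Mei4p, by 0.93, and *spo7*, a sporulation gene, by 0.74. SPAC212.05c had 0.43, 0.50 and 0.66 in *rpb1-12XS2ACTD* and −1.19, −0.47 and −0.57 in *rpb1-12XCTD*, with the 3 tested arrays close together (difference 1.28, adjusted p = 0.0146). It was left out of the chromosome-end list because only protein-coding genes were counted from the ends. By its systematic name it falls between SPAC212.06c and SPAC212.04c, genes 4 and 5 from the left end of chromosome I. SPAC16E8.05c had 0.59, 0.69 and 1.00 in *rpb1-12XS2ACTD* and −0.69, −0.04 and −0.03 in *rpb1-12XCTD* (difference 1.01). *npg1* (0.94), *sst6*, an endosomal sorting gene (0.78), *abo2*, a bromodomain ATPase gene (0.71), and *ppk24*, a protein kinase gene (0.60), complete the named ones together with *nsk1*.

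Of the 6 unnamed probe sets, 1776578_at had 0.47, 2.17 and 2.41 in *rpb1-12XS2ACTD* and −0.54, −0.46 and −0.43 in *rpb1-12XCTD* (difference 2.17). 1770544_at had −1.02, −1.10 and −0.25 in *rpb1-12XS2ACTD* and −2.57, −3.71 and −2.35 in *rpb1-12XCTD* (difference 2.09). Replicate 1 of the tested strain lay nearer to the control in the first and beside replicate 2 of its own strain in the second. 1769794_at had 0.36, 0.74 and 0.93 in *rpb1-12XS2ACTD* and −1.48, −0.41 and −0.34 in *rpb1-12XCTD* (difference 1.42). 1780196_at had 0.17, 0.98 and 1.19 in *rpb1-12XS2ACTD* and −0.69, −0.17 and −0.42 in *rpb1-12XCTD* (difference 1.21). The smallest unadjusted p of all belonged to another of them, 1775126_at, with 0.35, 0.55 and 0.49 in *rpb1-12XS2ACTD* and −0.45, −0.35 and −0.70 in *rpb1-12XCTD* (difference 0.96, SE 0.10, adjusted p = 0.00558). This probe set was chosen for mention after its values were seen.

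A single gene was called lower. SPAC18G6.12c had 0.19, −0.36 and −0.30 in *rpb1-12XS2ACTD* and 0.77, 0.44 and 0.42 in *rpb1-12XCTD*, and its difference was −0.70 (SE 0.14, adjusted p = 0.0489; 0.35 from the 6 DMSO arrays alone). Replicate 1 of the tested strain was again the array nearest to the control. The call held in 2 of 6 fits with 1 DMSO array left out, and in 0 of 6 with 1 LatA array left out. At an unadjusted p under 0.05 and 1.5 fold limma passed 24 lower probe sets (0.492%) and 135 higher ones (2.77%).

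Among genes of cytokinesis, the division of the cell by an actomyosin ring, 2 of 333 were higher, *nsk1* and *spo7*. This share of 0.601% lay below the 0.841% of all probe sets, and the median difference was 0.08 against 0.06 over all probe sets. The calls of *nsk1* and *spo7* each held in 2 of 6 fits with 1 DMSO array left out, and in 0 of 6 with 1 LatA array left out. From limma on the 6 DMSO arrays alone their adjusted p was 0.333 and 0.289. *nsk1*, which encodes a substrate of the Clp1p phosphatase at kinetochores and the spindle, had 0.07, 0.60 and 0.70 in *rpb1-12XS2ACTD* and −0.39, −0.17 and −0.20 in *rpb1-12XCTD* (difference 0.71, SE 0.14, adjusted p = 0.0489). It was the only one called of 26 contractile ring and actin genes, whose median difference was 0.09. *aip1*, which promotes the disassembly of actin filaments with cofilin, had −0.11, −0.76 and −0.80 in *rpb1-12XS2ACTD* and 0.01, −0.01 and 0.33 in *rpb1-12XCTD*. Every tested array lay below every control array, but the difference of −0.67 did not pass (adjusted p = 0.102). *cut12*, a spindle pole body gene, had −0.09, 0.21 and 0.08 in *rpb1-12XS2ACTD* and −0.78, −0.47 and −0.16 in *rpb1-12XCTD*, a difference of 0.54 below the fold threshold (adjusted p = 0.105). *clp1*, the Cdc14-family phosphatase that supports cytokinesis under stress, had 0.27, 0.27 and 0.28 in *rpb1-12XS2ACTD* and −0.05, 0.00 and 0.15 in *rpb1-12XCTD* (difference 0.24, adjusted p = 0.233). The 13 probe sets of the Septation Initiation Network had 0 calls and a median difference of 0.0042, with *cdc16* at 0.31 and *cdc11* at 0.29. Glucan synthases, which build the septum and wall, had 0 of 13 (median 0.01).

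The groups that follow had no call. Together 25 of the 36 lists had none, and of their 526 probe sets 13 were higher and 1 lower at an unadjusted p under 0.05 and 1.5 fold from limma, 6 of them for iron uptake. The same cut passed 2.77% of all probe sets as higher and 0.492% as lower. With 0.841% of all probe sets called higher, a short list without a call says little about its genes. Genes of the CTD kinases and phosphatases, 14 probe sets, had 0 calls and a median difference of 0.11. *lsk1*, the serine 2 kinase itself, had 0.04, 0.50 and 0.62 in *rpb1-12XS2ACTD* and −0.18, −0.21 and −0.04 in *rpb1-12XCTD*, without overlap. Its difference of 0.53 was under the fold threshold and did not pass (adjusted p = 0.0986). Its cyclin gene *lsc1* differed by −0.01 (adjusted p = 0.972) and *lsg1* by 0.20 (adjusted p = 0.655), with overlapping arrays. *fcp1*, the phosphatase that removes the serine 2 mark, had 0.02, 0.28 and 0.20 in *rpb1-12XS2ACTD* and −0.50, −0.42 and 0.01 in *rpb1-12XCTD* (difference 0.47, adjusted p = 0.114). *rpb1* had −0.10, −0.45 and −0.05 in *rpb1-12XS2ACTD* and 0.20, −0.29 and 0.01 in *rpb1-12XCTD*, groups that overlapped (difference −0.17, adjusted p = 0.545). RNA polymerase II subunits had 0 of 12 called (median 0.09), and elongation and Paf1 factors 0 of 15 (median 0.08), where *tpr1* had the largest difference at −0.52 (adjusted p = 0.37).

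The regulators that hold meiotic and subtelomeric genes down were not called either, in lists too short for that to say much. Heterochromatin and RNAi genes had 0 of 25 (median 0.19). *dcr1*, the Dicer ribonuclease of that pathway, had −0.38, −0.13 and −0.01 in *rpb1-12XS2ACTD* and −0.79, −0.54 and −0.46 in *rpb1-12XCTD* (difference 0.42, adjusted p = 0.173), and *cid12* differed by 0.51 (adjusted p = 0.281). Genes of meiotic mRNA removal had 0 of 8 (median 0.05), with the exosome nuclease *rrp6* at 0.33 (adjusted p = 0.402) and *red1* at 0.26 (adjusted p = 0.243). The Tf2 retrotransposon probe set differed by 0.22 (adjusted p = 0.547).

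Mating genes were also without a call. Of 10 probe sets of M cell genes, the type of both strains, 0 were called (median −0.13), and of 5 of P cell genes 0 (median 0.12). *mfm2*, a gene for the M-factor pheromone, had −0.20, −0.69 and −1.17 in *rpb1-12XS2ACTD* and 0.38, −0.38 and 0.53 in *rpb1-12XCTD* (difference −0.87, adjusted p = 0.203). *mam3*, an M-type agglutinin gene, had −0.55, 0.07 and 0.24 in *rpb1-12XS2ACTD* and −0.92, −1.03 and −0.68 in *rpb1-12XCTD*, apart on every array at 0.80 (adjusted p = 0.0734). The P-type agglutinin gene *map4* differed by 0.48 (adjusted p = 0.13) and *map2*, for P-factor, by 0.21. Pheromone signalling genes had 0 of 12 (median 0.03), among them *fus1*, the formin of cell fusion, at 0.72 (adjusted p = 0.132) and *ste6* at 0.68 (adjusted p = 0.13).

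Iron uptake was the list with the largest median difference after the helicases, 0.73 over 11 probe sets, and with no call. These genes are switched on when iron runs short, and their arrays differed within each strain. *fio1*, the multicopper oxidase of high-affinity iron uptake, had −0.02, 3.41 and 3.42 in *rpb1-12XS2ACTD* and −1.22, 2.15 and −0.49 in *rpb1-12XCTD* (difference 2.12, SE 0.96, adjusted p = 0.29). Replicates 2 and 3 of the tested strain and replicate 2 of the control were high, while replicate 1 of the tested strain was among the low arrays. *str1*, a siderophore transporter gene, had −0.10, 3.28 and 3.87 in *rpb1-12XS2ACTD* and −0.53, 2.66 and −0.08 in *rpb1-12XCTD* (difference 1.67, adjusted p = 0.418). Averaged over the 11 genes, the values were −0.17, 1.01 and 1.30 in *rpb1-12XS2ACTD* and −0.49, 0.38 and −0.27 in *rpb1-12XCTD*. The strains were apart on every array in 3 of the 11, *str3* (1.18), *frp2* (0.89) and *sib1* (0.65). Without *rpb1-12XS2ACTD* replicate 1, 7 of the 11 were called higher, against 2.89% of all probe sets, and *fio1* differed by 3.27 (adjusted p = 0.0304).

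**Figure D4:**
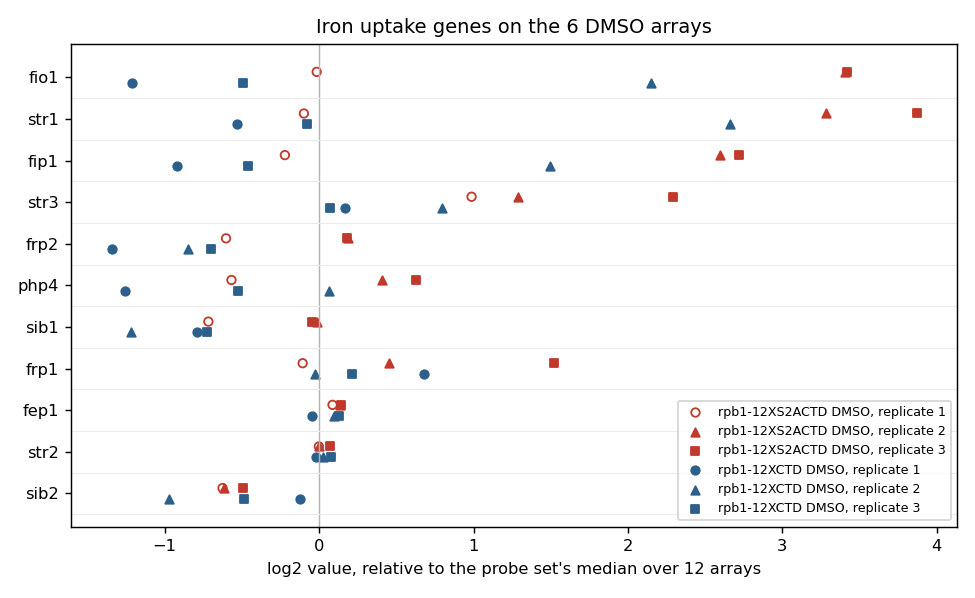
The log2 value relative to the probe set's median over 12 arrays (x axis) of 11 iron uptake genes (rows) is shown on each DMSO array, *rpb1-12XS2ACTD* in red with its replicate 1 as open circles, and *rpb1-12XCTD* in blue. For *fio1*, *str1* and *fip1* the open circle lies with the low blue points near 0, and the blue triangle (replicate 2) lies toward the high red points, at 2.15 for *fio1*.

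The other nutrient and marker lists had no call either. *nmt1*, a thiamine biosynthesis gene, had −0.08, 0.67 and 0.85 in *rpb1-12XS2ACTD* and −0.69, −0.63 and −0.47 in *rpb1-12XCTD*, apart on every array (difference 1.08, adjusted p = 0.0681), among 9 thiamine probe sets with 0 calls (median 0.24). *ura4*, for orotidine phosphate decarboxylase and the marker beside *rpb1* in both strains, had −0.86, 0.20 and 0.40 in *rpb1-12XS2ACTD* and −0.78, −1.43 and −1.08 in *rpb1-12XCTD*. Replicate 1 of the tested strain lay among the control arrays, and the difference of 1.01 did not pass (adjusted p = 0.149). Uracil and marker genes had 0 of 8 (median 0.0032) and phosphate genes 0 of 8 (median 0.08), with *pho84*, a phosphate transporter gene, at −0.29 (adjusted p = 0.366). Hexose transport and gluconeogenesis genes had 0 of 14 (median 0.13), with the transporter gene *ght3* at 0.67 (adjusted p = 0.214).

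Stress, growth and cell cycle genes gave medians between 0.02 and 0.17. The 104 genes repressed in the core environmental stress response had 0 calls (median 0.12), stress kinases and factors 0 of 17 (median 0.09), heat shock proteins 0 of 16 (median 0.17) and proteasome subunits 0 of 26 (median 0.06). *sty1*, the stress-activated MAP kinase, had −0.21, −0.18 and −0.08 in *rpb1-12XS2ACTD* and 0.23, 0.10 and 0.10 in *rpb1-12XCTD*, lower on every array by a small amount (difference −0.30, adjusted p = 0.077). The chaperone gene *hsp16* differed by 0.85 (adjusted p = 0.228) and *ssa1* by 0.82 (adjusted p = 0.299), with wide spreads within strains. Ribosome biogenesis factors had 0 of 29 (median 0.15) and cytosolic ribosomal proteins 0 of 132 (median 0.02). Core histones had 0 of 14 (median 0.03) and DNA replication and G1/S genes 0 of 19 (median 0.03).

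Cell separation genes, which cut the septum after division, had 0 of 13 called and the lowest median of the lists, −0.17. *eng1*, a septum glucanase gene, had 0.90, 0.02 and −0.31 in *rpb1-12XS2ACTD* and 1.10, 0.36 and 1.13 in *rpb1-12XCTD* (difference −0.66, adjusted p = 0.359). Replicate 1 of the tested strain lay with the control arrays, and its replicates 2 and 3 lay below them all. The licensing gene *cdt1* spread widely within the tested strain, at 1.36, 0.23 and −0.23, against 1.03, 0.25 and 1.15 in *rpb1-12XCTD* (difference −0.36, adjusted p = 0.711).

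Replicate 1 of *rpb1-12XS2ACTD* lay toward the control in many genes. Among the 41 higher probe sets it was the lowest tested array in 35 and the highest in 3, and it lay nearer to the control mean than to the mean of its own replicates in 12. Placed between the control mean (0%) and the mean of replicates 2 and 3 (100%), it lay at a median of 62.3%, with a range of 30.5% to 151%. Without it 141 probe sets were higher (2.89%), which include the 41, and 60 were lower (1.23%). Among those 141 it lay at or below the highest control array in 32, and among those 60 at or above the lowest control array in 52. Both sets were picked by leaving that array out, which favours probe sets where it lay toward the control. These 2 counts are therefore partly set by the choice, and they were not made for the other arrays. *lsk1* then differed by 0.70 (adjusted p = 0.00188), *aip1* by −0.89 (adjusted p = 0.00247), *ura4* by 1.39 (adjusted p = 0.00505) and *nmt1* by 1.35 (adjusted p = 0.0034). Subtelomeric calls were 22 of 72 and *meu* and *mug* calls 15 of 98 without that array, and 23 and 12 without replicate 1 of both strains, where 121 probe sets were higher (2.48%) and 100 lower (2.05%). Without replicate 2 or replicate 3 of the tested strain, by contrast, 3 probe sets each were called, all higher. The 2 calls that held without each of the 6 DMSO arrays in turn were 1 of the *tlh2* probe sets and 1775126_at.

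The arrays of LatA-treated cells gave a second measure of the same genotypes. Their values do not enter the differences with DMSO, but they enter the spread behind the calls, which the limma fit shares between both comparisons. All 41 probe sets that were higher with DMSO were also higher in *rpb1-12XS2ACTD* with LatA, and 25 of them (61.0%) were called, against 68 of all 4875 (1.39%). In 40 of the 41 every LatA-treated *rpb1-12XS2ACTD* array lay above every LatA-treated *rpb1-12XCTD* array, against 15.6% of all probe sets. The 25 were 36.8% of the 68 calls with LatA. The median difference of the 41 was 1.01 with DMSO and 0.93 with LatA. *tlh2* differed by 4.46 with LatA (adjusted p = 0.000546), *meu7* by 1.77, *hhy1* by 1.57 and *dmc1* by 0.83. *rec10* (1.08, adjusted p = 0.0638), *meu14* (0.61, adjusted p = 0.192) and *mde2* (0.25, adjusted p = 0.169) did not pass with LatA. SPAC18G6.12c was lower there too, with a difference of −0.59 (adjusted p = 0.0378). A test of whether the genotype effect differed between treatments passed for none of the 42, with a smallest adjusted p = 0.193 from limma and 10 of the 42 at an unadjusted p under 0.05. Among all 4875 probe sets it passed for 1, *nmt1*.

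**Figure D5:**
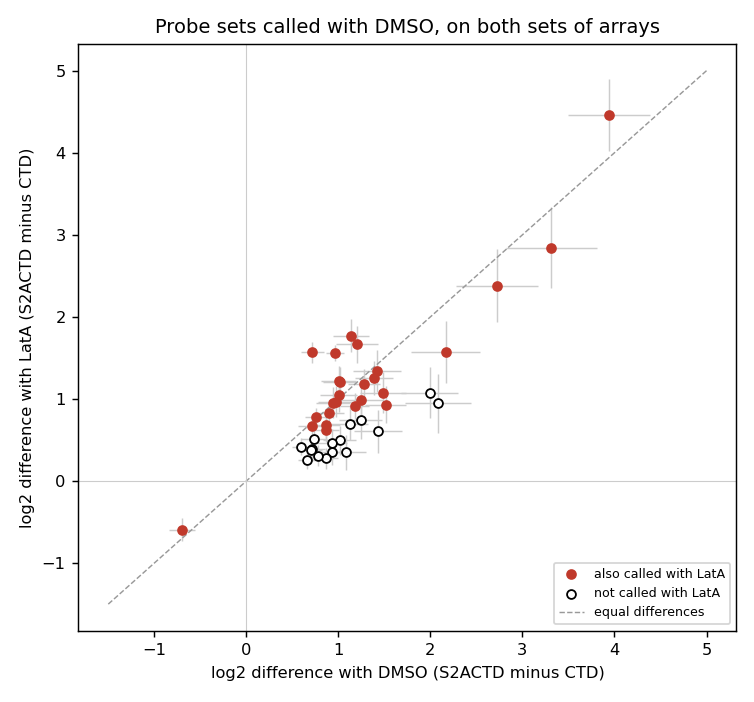
The log2 difference between strains (*rpb1-12XS2ACTD* minus *rpb1-12XCTD*) of the 42 called probe sets is plotted with DMSO (x axis) and with LatA (y axis), with bars of 1 SE from limma, filled points for those also called with LatA and a dashed line where both differences are equal. All points lie on the same side of 0 on both axes, and 31 of the 41 higher ones lie below the line.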

How the data were processed

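Total RNA of 12 cultures was hybridized to 12 single-channel Affymetrix arrays. The authors normalized the arrays by RMA in GeneSpring GX (the labels' processing notes name RMA, with no version), and the deposited values are log2 intensities. Every probe set has a median of 0 over the 12 arrays, a centring whose method is not given in the sources used here, and no signal over background is kept, so no filter on dim probe sets was possible. The RNA amount per array is left out because the methods and the labels differ on it. The number of arrays limits the precision. No column of another series was present. The authors' own comparisons and their values were not used.

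Probe sets were named through the paper's gene list (2584) or the array's annotation (1337), and 954 kept only their identifier. The order of genes along chromosomes came from the RefSeq gene table. The build behind the arrays is not given in the sources used here, so no coordinates are printed. Microarray values hold no sequences, and none were used.

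The main fit was limma 3.58.1 in R 4.3.3 (lmFit and eBayes, 4 group means, 12 arrays), with figures and tables made in Python 3.11.15. Calls needed an adjusted p under 0.05 and 1.5 fold. The fit was also run on simulated data with known changes, independent noise and no outlying array. That run cannot show how the uneven DMSO replicates affect the calls. The genes given with per-array values are all lower calls, the 20 called probe sets with the largest differences, up to 4 called members of each of 36 lists, and 10 genes of the study's own interest; for a list without calls, the 1 or 2 members furthest from 0. Genes outside this rule (*cmt2*, *mug14*, SPBPB2B2.07c, SPAC16E8.05c, the further iron uptake genes and those in the closing section) were chosen after their values were seen. The members of the comparison and the lists were chosen with earlier results of these data known. No list was tested as a set. One gene that the rule names is not reported here. Alternatives were limma on the DMSO arrays alone, the gene-specific test named in the methods, run with equal variances, the replicate number as a block, array weights, limma's trend and robust options, quantile normalization, centring of each array, no fold threshold, a test against 1.5 fold, removal of probe sets that can match several genes, and removal of each array. Removal of both DMSO arrays numbered 1 was added after seeing the data.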

Additional observations from a re-analysis of the deposited data

Results flagged for a closer look

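The genotype effect on *nmt1*, a thiamine biosynthesis gene, was larger with LatA than with DMSO by 3.50 log2 (adjusted p = 0.00221 from limma's interaction term over all probe sets), at 4.58 with LatA and 1.08 with DMSO. *clp1* was higher on every *rpb1-12XS2ACTD* array with DMSO and lower on every one with LatA, differences that lay −0.43 log2 apart (LatA minus DMSO). It was picked for its opposite signs, with an adjusted p = 0.366 from the interaction term. No group of 3 arrays was screened for single outlying values.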

How the results depend on the processing

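The main counts were 41 higher, 1 lower and 25 also higher with LatA, given below in that order. They were 0, 0 and 0 with the compared groups alone and with the methods' test after adjustment, and 74, 1 and 40 with the methods' test unadjusted. They were 84, 3 and 36 with array weights, 35, 0 and 23 with each array centred on its median, 15, 0 and 13 with quantile normalization, 1, 0 and 1 with the limma test against 1.5 fold, and 30, 0 and 17 without probe sets that can match several genes. With trend and robust options they were 31, 1 and 18, and with no fold threshold 46, 1 and 29. Without both DMSO arrays numbered 1, an alternative chosen after seeing the data, they were 121, 100 and 52. Leaving out each array in turn gave 3 to 152 higher, 0 to 60 lower and 2 to 49 also higher with LatA. The arrays that moved the count of higher probe sets by over 1.5 times were *rpb1-12XS2ACTD* DMSO replicate 1 (141), 2 (3) and 3 (3), and *rpb1-12XCTD* DMSO replicate 1 (18) and 3 (152). With 1 such array left out, 2 of the 42 calls held whichever DMSO array it was. The causes of these moves were not tested.

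The replicate numbers recur in each group, but no source says that they pair the arrays. Deviations from the group means correlated between same-numbered DMSO arrays at −0.13, 0.10 and −0.32. Over the 18 same-numbered pairs of the whole series these correlations ran from −0.40 to 0.34. With so few arrays per group, such correlations cannot show whether the numbers pair the arrays. With the replicate number as a block the counts were 36, 0 and 17 on 12 arrays and 0, 0 and 0 on the 6 DMSO arrays.

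No named gene that was called changed sign under any of these settings. Of the named genes that were not called, 5 did with 1 DMSO array left out: *lsg1* (main value 0.20) ran between −0.034 and 0.43, *lsc1* (−0.0094) between −0.11 and 0.074, *inv1* (0.45) between −0.17 and 0.84, Tf2-2 (0.22) between −0.020 and 0.34, and *rpl1603* (−0.15) between −0.32 and 0.060. *lsg1* was at −0.059 without both DMSO arrays numbered 1. The deposited values limit what can be said of dim probe sets, since signal over background is not kept, and quantile normalization and median centring act here on centred values.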

Other observations

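Genes lower in *rpb1-12XS2ACTD* appear mainly when its DMSO replicate 1 is left out, and they are described here with no explanation. Of the 60 probe sets then lower, 41 had a gene name, all 60 had a negative difference with every array kept, 58 were lower with LatA and 16 of these were called there. Among all 4875 probe sets 73 (1.5%) were called lower with LatA, and the share lower in sign was not counted. Their differences without that array ran from −1.82 to −0.60 log2. *psf3*, a subunit of the GINS complex of DNA replication, had 0.95, 0.0013 and −0.25 in DMSO-treated *rpb1-12XS2ACTD* and 0.69, 0.71 and 1.43 in DMSO-treated *rpb1-12XCTD* (without replicate 1 −1.07, adjusted p = 0.0134 from limma; with it −0.71, adjusted p = 0.246). *slp1*, the mitotic activator of the anaphase-promoting complex, had 1.05, −0.23 and 0.02 in *rpb1-12XS2ACTD* and 1.18, 0.69 and 0.94 in *rpb1-12XCTD* (without replicate 1 −1.04, adjusted p = 0.0134; with it −0.66, adjusted p = 0.284). *agn2*, an alpha-glucanase that frees spores from the ascus, had 0.31, −0.61 and −0.46 in *rpb1-12XS2ACTD* and 0.33, 0.39 and 0.62 in *rpb1-12XCTD* (without replicate 1 −0.98, adjusted p = 0.000838; with it −0.70, adjusted p = 0.13). In each the left-out array lay among or beside the control arrays, and the other 2 lay below them all. Since the genes were picked with that array left out, its place is partly set by the choice.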
